A study of Mus musculus with 14 samples.

Results

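The collagen genes of the mouse were followed across 14 embryonic stem (ES) cell lines. The genes were taken by symbol alone, as Col, a number, a and a number, which takes 44 of the 23298 genes in the expression table. This rule uses no measured value, but the family was chosen with earlier results of these data known. The lines came from reciprocal crosses of C57BL/6J and CAST/EiJ mice. BC lines had a C57BL/6J mother and a CAST/EiJ father and comprised 3 XX, 3 XY and 2 XO lines, and CB lines had the reverse parentage and comprised 3 XX and 3 XY lines. Each line was derived from 1 blastocyst, so that lines of a group are separate derivations, and every line had been grown with serum and LIF on inactivated mouse embryonic fibroblasts (MEFs) that were depleted in 2 consecutive steps before RNA was taken. RNA was thus measured in bulk, and in every value fewer cells of a type and less RNA per cell cannot be told apart.

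Collagens are built from 3 polypeptide chains wound into a triple helix. Fibril-forming collagens such as types I, III and V give connective tissue its tensile strength and are the main product of fibroblasts, whereas type IV collagen forms the network of basement membranes and type VI a beaded filament around cells. Type I collagen combines products of Col1a1 and Col1a2, and type IV combines chains whose genes lie in head-to-head pairs. Feeder fibroblasts express fibrillar collagens, and cells of the primitive and parietal endoderm make basement membrane collagens.

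The authors deposited a read signal per gene and line, scaled to a common depth, with sums of 28150946 to 30657803 per line. In each line 98.5% to 98.9% of the low values were whole multiples of 1 step within a tolerance of 0.1 step, and if a step was 1 read the lines held 11904424 to 69646376 reads. A gene at 3 reads, the limit taken for detection, then had a signal of 1.22 to 7.37. Pou5f1 and the other 11 ES cell markers were present in all 14 lines at a mean log2 level of 12.5 to 13.4. The Y-linked gene Uty was at 945 to 2088 in the BC XY lines and at 1149 in CB XY 1, but CB XY 2 and CB XY 3, named as labelled, had 19.6 and 45.4, within the range of the XX lines. Genes of chromosome 6, where Col1a2 lies, had a median log2 deviation of 0.30 in CB XX 1, 0.35 in CB XY 2 and 0.27 in CB XY 3. For chromosome 8, the site of Col4a1 and Col4a2, it was 0.27 in CB XX 3 and 0.33 in CB XY 1, and for chromosome 1, the site of Col3a1, Col5a2 and Col6a3, it was 0.35 in CB XX 1. Deviations below 0 included those of chromosome 10, the site of Col6a1, Col6a2 and Col18a1, at -0.24 in CB XX 2 and -0.15 in BC XX 1. Chromosome 8 was at -0.23 in BC XX 3.

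Several of these genes are neighbours. On the mm9 assembly, with GENCODE annotation, Col3a1 lay at chr1:45368383-45406551 on the plus strand and Col5a2 at chr1:45431166-45560127 on the minus strand, with 24614 bases between them. Col1a2 was at chr6:4454814-4491543 and Col1a1 at chr11:94797538-94814356, both on the plus strand. The head-to-head pairs were Col4a1 (chr8:11198423-11312826, minus) with Col4a2 (chr8:11312805-11449287, plus), and Col4a6 (chrX:137599946-137908619, minus) with Col4a5 (chrX:137909928-138123778, plus). The promoter windows of 6 of these genes are shown. Col1a2 and Col3a1, and also Col4a1 and Col4a2, were all higher in BC XX than in BC XY lines by the test given below. Of Col4a5 and Col4a6 only Col4a5 was. The windows run from 250 bases before to 50 bases after the RefSeq start, come from the GRCm38.p6 table, and each matched mm9 exactly once. Capitals mark 3 motifs, each searched for on both strands. The first was TATAAA. The second was CCAAT. The last was GGGCGG.
Col1a2 (chr6:4455368-4455667, plus): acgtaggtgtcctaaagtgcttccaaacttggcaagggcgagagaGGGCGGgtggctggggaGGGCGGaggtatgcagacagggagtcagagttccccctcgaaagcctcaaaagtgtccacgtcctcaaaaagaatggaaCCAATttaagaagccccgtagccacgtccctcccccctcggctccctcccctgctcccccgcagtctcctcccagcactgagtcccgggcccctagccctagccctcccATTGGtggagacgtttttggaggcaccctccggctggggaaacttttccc
Col3a1 (chr1:45368133-45368432, plus): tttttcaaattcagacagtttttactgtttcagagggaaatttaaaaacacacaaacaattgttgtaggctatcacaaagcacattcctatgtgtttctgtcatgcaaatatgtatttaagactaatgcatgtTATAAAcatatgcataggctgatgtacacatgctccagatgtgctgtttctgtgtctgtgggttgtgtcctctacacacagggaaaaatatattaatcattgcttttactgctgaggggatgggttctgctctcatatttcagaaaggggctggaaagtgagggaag
Col4a1 (chr8:11312777-11313076, minus): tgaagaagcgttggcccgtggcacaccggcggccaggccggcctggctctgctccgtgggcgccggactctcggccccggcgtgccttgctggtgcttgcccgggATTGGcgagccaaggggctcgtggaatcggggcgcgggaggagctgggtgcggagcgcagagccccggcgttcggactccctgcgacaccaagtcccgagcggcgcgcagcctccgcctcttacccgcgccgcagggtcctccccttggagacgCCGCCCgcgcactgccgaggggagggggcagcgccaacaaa
Col4a2 (chr8:11312555-11312854, plus): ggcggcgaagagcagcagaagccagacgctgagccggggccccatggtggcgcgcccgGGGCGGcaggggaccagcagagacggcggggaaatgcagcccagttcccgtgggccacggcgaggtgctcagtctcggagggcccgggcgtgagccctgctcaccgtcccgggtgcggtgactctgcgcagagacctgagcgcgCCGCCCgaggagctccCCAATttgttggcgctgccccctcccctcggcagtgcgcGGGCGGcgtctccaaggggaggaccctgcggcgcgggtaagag
Col4a5 (chrX:137909712-137910011, plus): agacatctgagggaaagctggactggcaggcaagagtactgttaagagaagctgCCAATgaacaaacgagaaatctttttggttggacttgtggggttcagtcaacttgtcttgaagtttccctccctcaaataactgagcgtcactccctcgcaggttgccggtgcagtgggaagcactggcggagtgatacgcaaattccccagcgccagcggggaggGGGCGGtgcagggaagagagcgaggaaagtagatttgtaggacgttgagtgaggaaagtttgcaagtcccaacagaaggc
Col4a6 (chrX:137908570-137908869, minus): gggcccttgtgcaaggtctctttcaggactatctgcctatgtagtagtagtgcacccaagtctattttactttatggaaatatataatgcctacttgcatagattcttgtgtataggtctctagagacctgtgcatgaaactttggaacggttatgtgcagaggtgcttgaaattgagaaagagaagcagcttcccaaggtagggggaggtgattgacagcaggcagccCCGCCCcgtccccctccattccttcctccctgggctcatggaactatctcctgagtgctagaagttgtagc

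The starts of Col4a1 and Col4a2 were 21 bases apart, and their windows shared 78 bases. For Col4a5 and Col4a6 the starts were 1343 bases apart and the windows shared 0 bases. Windows were found for 35 of the 44 collagen genes, 38 windows in all. TATAAA was in 13.2% of them and in 13.6% of the 32851 windows of the whole table, CCAAT in 34.2% and 37.4%, and GGGCGG in 60.5% and 35.7%. Col1a2, with 2 CCAAT and 2 GGGCGG and no TATAAA, and Col3a1, with 1 TATAAA and neither of the others, held different motifs, and both genes were highest in the BC XX lines. These matches are descriptions of the windows.

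All 44 genes together took 0.241%, 0.365% and 0.443% of the signal in BC XX 1, BC XX 2 and BC XX 3. In the other 11 lines the share ran from 0.0694% in BC XY 2 to 0.164% in CB XX 2, with a median summed signal of 30601 against 67911 to 127152 in the BC XX lines. The BC XX lines thus stood above every other line. The make-up of the sum differed as well. Fibril-forming genes held 51.9% to 58.5% of the collagen signal in the BC XX lines and 19.8% to 36.2% elsewhere. Col18a1, which encodes the basement membrane proteoglycan whose end fragment is endostatin, held 2.88% to 12.0% in the BC XX lines and 18.9% to 50.6% elsewhere.

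**Figure D1:**
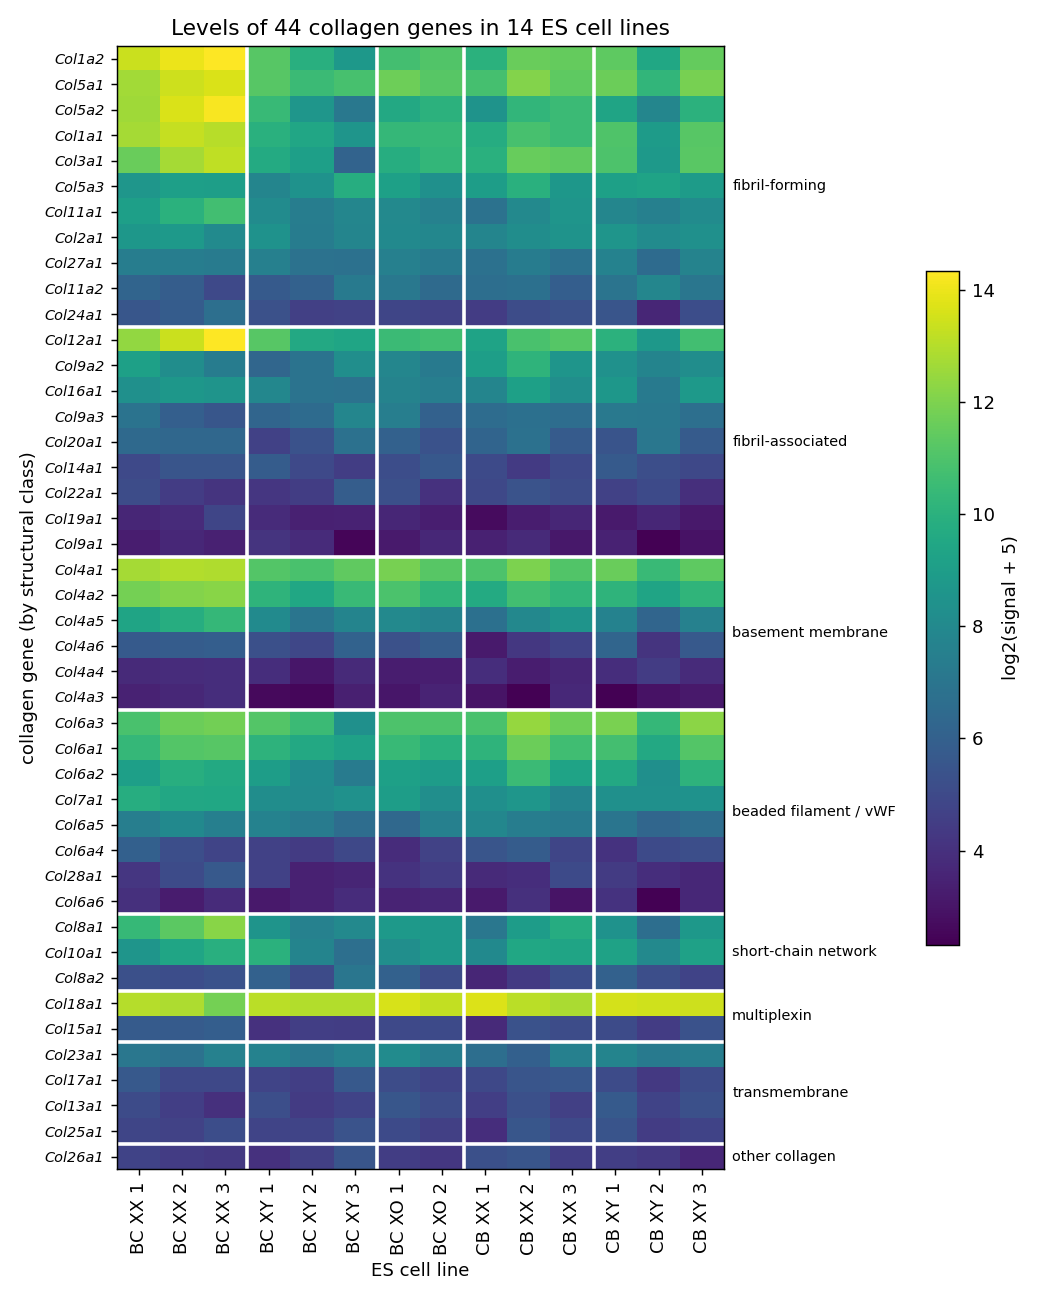
Levels of the 44 collagen genes (rows, by structural class and then by mean) in the 14 lines (columns, white lines between groups), as log2(signal + 5) in colour. The 3 BC XX columns are brightest for Col1a2, Col5a2, Col1a1, Col3a1 and Col12a1, whereas Col18a1 is bright in every line and lowest in BC XX 3 at a signal of 3660.

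Levels of different genes were compared as mean signal per kb of the longest coding transcript. In the BC XX lines the order was Col1a2 (2978), Col5a2 (1964), Col1a1 (1433), Col5a1 (1229), Col3a1 (1154) and Col4a1 (1142), and Col18a1 stood at rank 8 with 1014. In each of the other 4 groups Col18a1 came first, at 1303 per kb in BC XY, 1757 in BC XO, 1549 in CB XX and 1826 in CB XY lines. Next in those groups came Col4a1 at 349 (BC XY) and 471 (BC XO), Col6a1 at 488 (CB XX), and Col1a2 at 388 (CB XY). At the lower end, Col4a3, Col9a1 and Col19a1 reached a signal of 10 in fewer than 2 lines and were not tested, with highest values of 9.82, 12.5 and 23.6.

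The first question was whether XX lines differ from XY lines within a cross. In the BC cross, fibril-forming, basement membrane and a few other collagen genes were higher in XX lines. Of 41 genes tested, 13 were higher in BC XX than in BC XY lines and 0 were lower (31.7%, limma, adjusted by Benjamini-Hochberg across 16261 genes, false discovery rate (FDR) 0.05). Over all genes tested, 4.46% were higher by the same rule and 5.7% differed in either direction. The median log2 fold change of the 41 genes was 1.09, beside -0.04 for all genes. At an FDR of 0.01, the count was 8, where 1.2% of all genes passed. By class, 6 of 11 fibril-forming, 3 of 5 basement membrane, 1 of 8 beaded filament and related, 1 of 3 short-chain, 1 of 7 fibril-associated, 1 of 2 multiplexin and 0 of 4 transmembrane genes were higher. Without BC XX 3 the count was 7, where 229 of 16203 genes passed in all. Without BC XY 2 it was 8, where 232 of 16254 genes passed. With the mean level of 24 fibroblast markers as a covariate the count was 0. In that fit only 7 of all 16261 genes passed, so the 0 is not particular to collagen genes. Since lines are separate derivations, the p-values measure the spread between lines.

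**Figure D2:**
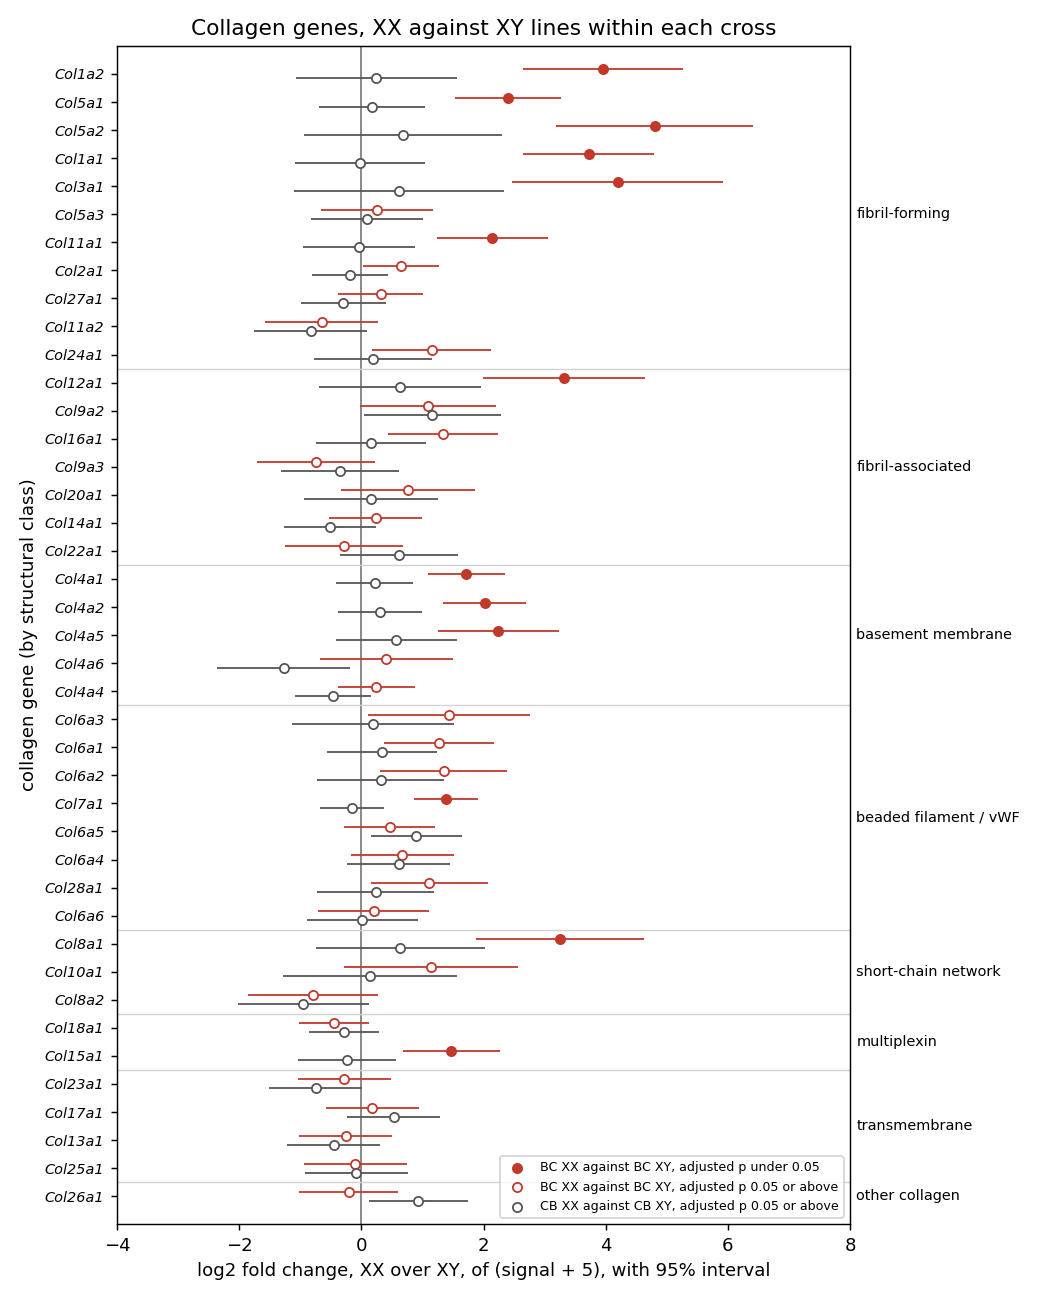
Log2 fold change of (signal + 5), XX over XY, with its 95% interval, for the 41 collagen genes tested (rows, by class), in the BC cross (red) and the CB cross (grey), filled where the adjusted p was under 0.05. The 13 filled points are all of the BC cross and lie between 1.38 and 4.80, and no CB point is filled.

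Type I collagen, the chief collagen of skin, bone and tendon, showed the pattern in both chains. Col1a1 had signals of 6804, 10132 and 8551 in the BC XX lines, 984, 683 and 376 in the BC XY lines, and 1266 and 1337 in the XO lines. In the CB cross it was at 870, 1823 and 1449 in XX lines and 2092, 476 and 2390 in the lines labelled XY. The BC XX lines did not overlap with any other line, and the groups of the CB cross did. Between BC XX and BC XY lines the fold change was 3.72 on the log2 scale (SE 0.50, adjusted p = 0.00155, limma), a ratio of mean signals of 12.5. Col1a2 was at 10665, 16247 and 20863 in the BC XX lines and at 2358, 963 and 418 in the BC XY lines, with 1723 and 2138 in the XO lines. Its CB values of 1008, 3073 and 2879 (XX) and 2609, 705 and 2905 (XY) overlapped. BC XX and BC XY lines differed by 3.96 on the log2 scale (SE 0.61, adjusted p = 0.00334, limma), so that both chains of the protein rose by similar factors.

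Among the other fibrillar collagens, Col3a1 and Col5a2 varied more between the BC XX lines than Col1a1 and Col1a2 did. The type III chain Col3a1, abundant in embryonic and vascular connective tissue, and the type V chain Col5a2, which helps to start type I fibrils, lie outside the rule for genes given in full and were named after their values were seen. Col5a2 was at 6356, 13162 and 19507 in the BC XX lines and at 1378, 388 and 135 in the BC XY lines, the largest fold change among the 41 genes (log2 4.80, SE 0.76, adjusted p = 0.00384, limma). In the other 8 lines it lay between 224 and 1478. Col3a1 was at 3133, 6692 and 9436 in the BC XX lines and at 804, 551 and 66.9 in the BC XY lines (log2 4.19, SE 0.81, adjusted p = 0.0103, limma). Unlike Col5a2, it came close to the BC XX range elsewhere, at 3000 in CB XX 2 and 2750 in CB XX 3. Col5a1, the partner chain of Col5a2, was at 6633, 11143 and 13212 against 2422, 1486 and 1817 (log2 2.40, SE 0.41, adjusted p = 0.00554, limma). Col11a1, a chain of cartilage and eye fibrils named on the same terms as Col3a1, was at 554, 1010 and 1684 against 279, 166 and 225 (log2 2.14, SE 0.43, adjusted p = 0.0119, limma). All BC XX lines were above all BC XY lines for these 4 genes. Of the other 5 fibril-forming genes, Col2a1, Col5a3, Col11a2, Col24a1 and Col27a1, none passed the test, with log2 fold changes from -0.65 to 1.15.

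Among fibril-associated collagens, which sit on the surface of fibrils, Col12a1 stood apart. Its signals were 5327, 10831 and 20876 in the BC XX lines, 2364, 762 and 672 in the BC XY lines, 1478 and 1671 in the XO lines, 633, 1907 and 2277 in the CB XX lines and 1058, 420 and 1671 in the lines labelled CB XY. BC XX 3 was thus 3.92 times BC XX 1, the widest spread within BC XX lines among the 13 genes, and still no line of another group reached BC XX 1. The log2 fold change was 3.31 (SE 0.62, adjusted p = 0.00894, limma). Col9a2, a cartilage collagen, had the next highest mean and a different order of lines. It was at 559, 296 and 159 in the BC XX lines and 72.4, 116 and 304 in the BC XY lines (log2 1.09, SE 0.52, adjusted p = 0.228), and its highest signal was 1131 in CB XX 2. The other 5 genes of the class that were tested had log2 fold changes from -0.74 to 1.34, and Col16a1, at the upper end, had an adjusted p of 0.0765.

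Both ubiquitous chains of the basement membrane network were higher in BC XX lines. Col4a1 was at 6820, 8082 and 7758 there and at 2257, 1931 and 2731 in the BC XY lines, with 3816 and 2410 in the XO lines, 2060, 3977 and 2184 in the CB XX lines and 3100, 1407 and 2620 in the lines labelled CB XY. Col4a2 was at 3606, 4509 and 4731 in the BC XX lines and at 1138, 705 and 1426 in the BC XY lines, and no other line exceeded 1964. The BC XX lines lay within 1.19 times of each other for Col4a1 and 1.31 times for Col4a2, a smaller spread than for Col5a2 (3.07 times) or Col3a1 (3.01 times). Their log2 fold changes were 1.72 (SE 0.30, adjusted p = 0.00617) and 2.02 (SE 0.32, adjusted p = 0.00384), both by limma.

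The X-linked chains of type IV collagen gave different results. Col4a5 was at 655, 904 and 1299 in the BC XX lines and at 262, 123 and 212 in the BC XY lines (log2 2.24, SE 0.46, adjusted p = 0.0140, limma), with 244 and 204 in the XO lines. Its CB values were 102, 242 and 365 (XX) and 198, 71.2 and 190 (XY), which overlapped. Col4a6, transcribed in the opposite direction from the adjacent start shown above, was at 48.8, 51.3 and 56.0 in the BC XX lines and 33.7, 24.9 and 62.9 in the BC XY lines, which overlapped (log2 0.41, SE 0.51, adjusted p = 0.671, limma). In the CB cross it was at 4.26, 14.6 and 21.3 in the XX lines and at 70.7, 12.3 and 46.7 in the lines labelled XY (log2 -1.27, adjusted p = 0.194). X-linked genes as a whole had median log2 deviations of 0.31 to 0.50 in the XX lines and -0.47 to -0.13 in the XY and XO lines. Col4a4 had values from 3.33 to 17.2 over the 14 lines, and Col4a3, at up to 9.82, was not tested.

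Type VI collagen, a product of many mesenchymal cells, did not pass the test for any of its main chains. Col6a3 was at 1889, 3222 and 3489 in the BC XX lines, 2207, 1467 and 325 in the BC XY lines, 2008 and 2022 in the XO lines, 1883, 5578 and 3317 in the CB XX lines, and 3849, 1275 and 4825 in the lines labelled CB XY. The highest 3 values were thus in the CB cross, and the BC XX lines overlapped with every group. The log2 fold changes in the BC cross were 1.44 for Col6a3 (SE 0.62, adjusted p = 0.182), 1.27 for Col6a1 (SE 0.42, adjusted p = 0.0927) and 1.35 for Col6a2 (SE 0.49, adjusted p = 0.116), by limma. Col6a1 was at 1277, 2223 and 2409 in the BC XX lines and 1098, 756 and 582 in the BC XY lines, and Col6a2 at 554, 924 and 776 against 521, 280 and 158. For both, BC XX and BC XY lines did not overlap, but CB XX 2 was higher than any BC XX line, at 3250 and 1471. Col7a1, the anchoring fibril collagen of skin, grouped here with the beaded filament genes and named after its values were seen, was at 902, 740 and 723 against 295, 271 and 329 (log2 1.38, SE 0.25, adjusted p = 0.00655, limma). The remaining members of the class, Col6a4, Col6a5, Col6a6 and Col28a1, had log2 fold changes from 0.20 to 1.11.

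Of the short-chain collagens, Col8a1, found in vessel walls and in Descemet's membrane of the eye, was at 1318, 2589 and 4726 in the BC XX lines and at 367, 193 and 250 in the BC XY lines (log2 3.25, SE 0.64, adjusted p = 0.0117, limma). The highest value in another group was 865 in CB XX 3. Col10a1, a marker of hypertrophic cartilage, was at 377, 676 and 966 against 1017, 213 and 100, so that the highest of the 14 values was in an XY line (log2 1.14, SE 0.66, adjusted p = 0.327). Col15a1, a multiplexin, was low, at 49.4, 50.5 and 55.0 against 11.2, 18.3 and 17.4 (log2 1.47, SE 0.37, adjusted p = 0.0349, limma). Col18a1, the other multiplexin, was at 8159, 7461 and 3660 in the BC XX lines, 8903, 7961 and 7903 in the BC XY lines, 12546 and 9722 in the XO lines, 13470, 8733 and 7256 in the CB XX lines, and 12251, 11418 and 11048 in the lines labelled CB XY. BC XX 3 had the lowest value of all, and the fold change did not pass the test (log2 -0.44, SE 0.27, adjusted p = 0.348). The 4 transmembrane genes had log2 fold changes from -0.28 to 0.18. Col23a1, a transmembrane collagen, was at 132, 109 and 190 against 194, 136 and 189 (log2 -0.28, SE 0.36, adjusted p = 0.685), and Col17a1, the hemidesmosome collagen, at 46.4, 25.2 and 25.5 against 22.5, 18.3 and 46.2 (log2 0.18, SE 0.36, adjusted p = 0.806). Col26a1 was at 22.0, 16.7 and 14.7 against 11.2, 19.1 and 40.2 (log2 -0.20, SE 0.38, adjusted p = 0.788).

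For 17 of the 41 genes (41.5%), all BC XX lines were above all BC XY lines, beside 14.6% of all genes tested, and for 0 they were all below, beside 12.5%. For 14 of the 41 (34.1%), the BC XX lines were above all 11 other lines, beside 5.26% of all genes. These 14 were the 13 genes that passed the test and Col24a1. Among the 13, BC XX 1 was the lowest BC XX line for 12 genes and BC XX 3 the highest for 10. The exceptions to BC XX 3 being highest were Col1a1 and Col4a1, which were highest in BC XX 2, and Col7a1, which was highest in BC XX 1 and lowest in BC XX 3.

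XO lines carry a single X chromosome and no Y chromosome, so they stand with the XY lines in X dosage and with the XX lines in lacking a Y. For 19 of the 41 genes (46.3%) both XO lines were below all BC XX lines, beside 23.6% of all genes tested, and for 5 (12.2%) both were above all BC XY lines, beside 9.01%. The 13 genes called between BC XX and BC XY were among the 19, and since they were called on the same BC XX lines, nothing is read from that. Against the XO lines, 9 of 41 collagen genes were higher in BC XX lines and 0 were lower, beside 3.06% of all genes higher and 4.66% in either direction. The 9 were Col1a1, Col1a2, Col5a1, Col5a2, Col11a1, Col12a1, Col4a1, Col4a2 and Col4a5. Their log2 fold changes lay between 1.31 for Col4a1 (SE 0.33, adjusted p = 0.0420, limma) and 3.70 for Col5a2 (SE 0.85, adjusted p = 0.0302, limma). Col3a1 had a log2 fold change of 2.47 with an adjusted p of 0.116, and the XO lines, at 884 and 1241, were above the BC XY lines. None of the 9 passed an FDR of 0.01, where 37 of 16261 genes did. The count was 0 with the fibroblast level as a covariate, where 7 of 16261 genes passed. With no filter on low values it was 2, where 411 of 21339 genes passed. The count was also 0 without BC XX 2, BC XX 3, BC XO 1 or BC XO 2. In these fits 193, 70, 5 and 12 of all genes passed, in place of 758, so calls fell beyond the collagen genes. Without BC XY 2 the count was 5, where 411 of all genes passed. Between XO and BC XY lines 0 of 41 genes passed, where 0.00615% of all genes did, and 0 had an unadjusted p under 0.05, where 1.49% of all genes did. The comparisons of BC XX lines with XY and with XO lines share the BC XX lines.

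In the reciprocal cross no collagen gene passed the test. Between CB XX lines and the lines labelled CB XY, the count was 0 of 41 (limma, FDR 0.05), beside 3.57% of all genes, and 4 had an unadjusted p under 0.05, beside 18.6% of all genes. Their median log2 fold change was 0.16, with a range of -1.27 to 1.16, and the median of all genes was -0.02. The 4 were Col6a5, Col9a2 and Col26a1, which were higher, and Col4a6, which was lower, and for the first 3 (7.32% of 41) all XX lines were above all XY lines, a pattern found in 11.7% of all genes. For Col1a1 the log2 difference was -0.02 with a 95% interval of -1.08 to 1.05, and for Col5a2 it was 0.68 with an interval of -0.94 to 2.30. The count was 0 without each line in turn, and 0 with CB XY 2 and CB XY 3 left out, a fit with 1 CB XY line that is assumed to vary like the other groups. The CB lines varied widely among themselves: CB XX 1 and CB XY 2 had the lowest Col1a1, Col1a2, Col5a2, Col12a1 and Col8a1 of the 6 CB lines, and CB XX 2 the highest Col6a1, Col6a2 and Col6a3 of all 14.

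Whether the sex difference itself differed between the crosses was tested by the interaction of sex and cross. None of the 41 genes passed (0.0738% of all genes did), although 14 had an unadjusted p under 0.05, beside 9.05% of all genes, and the median interaction was 0.88 on the log2 scale. The smallest adjusted p was that of Col1a1 (0.0932), with an interaction of 3.74 (SE 0.70), and Col7a1 (1.54, adjusted p = 0.144) and Col1a2 (3.71, adjusted p = 0.168) came next. Col1a1 passed without CB XY 2 (4.48, adjusted p = 0.00465) and without CB XY 2 and CB XY 3 together (4.38, adjusted p = 0.0427), both by limma, where the second fit has 1 CB XY line, assumed to vary like the other groups. When all 6 XX lines were compared with all 6 lines labelled XY, 0 of 39 genes passed, beside 5.21% of all genes, and 15 had an unadjusted p under 0.05, beside 23.1%. Col5a2 had the largest log2 fold change (2.74, SE 0.89, adjusted p = 0.0893) and Col3a1 the smallest adjusted p (2.40, SE 0.74, adjusted p = 0.0759). With the cross as a covariate 6 of the 39 genes passed, where 1697 of all 15311 genes did. Without CB XX 1 there were 12, where 1746 of all 15445 genes passed.

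Ratios of chains within a line do not depend on the scaling of the line. Per unit of transcript length, Col1a1 was at 0.37 to 0.81 times Col1a2 over the 14 lines, Col4a1 at 1.60 to 2.67 times Col4a2, and Col6a1 at 2.22 to 4.18 times Col6a2. For the pair Col1a1 and Col1a2, the BC XX and BC XY lines overlapped (0.37 to 0.58 and 0.38 to 0.81), and the mean log2 ratios of XX and XY lines differed by -0.25 (exact permutation test, two-sided, p = 0.273). For Col4a1 and Col4a2 the difference was -0.19 (exact permutation test, two-sided, p = 0.177). Other ratios differed between groups, and these were picked out after the values were seen. Col1a2 was at 8.26 to 9.80 times Col6a3 in the BC XX lines and at 0.88 to 2.10 times in the other 11 lines (BC XX against BC XY, exact permutation test, two-sided, p = 0.10, the smallest that 3 against 3 lines can give). Col5a1 was at 0.53 to 0.82 times Col5a2 in the BC XX lines and at 1.39 to 10.6 times in the others.

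The ratio of the X-linked pair was higher in XX lines of both crosses. Per length, Col4a5 was at 13.6 to 23.6 times Col4a6 in the BC XX lines and 16.9 to 24.4 times in the CB XX lines. It was at 3.43 to 7.91 times in the BC XY lines, 3.94 to 7.24 times in the XO lines, and 2.85 to 5.90 times in the lines labelled CB XY. No XX line overlapped with an XY or XO line. The mean log2 ratio was 4.22 ± 0.32 (SD, n = 6) in XX lines and 2.20 ± 0.54 (SD, n = 6) in lines labelled XY. The difference was 2.02 (exact permutation test, two-sided, p = 0.00216, the smallest that 6 against 6 lines can give). That test pooled the crosses. Within the BC and CB crosses the differences were 1.80 and 2.23 (exact permutation test, two-sided, p = 0.10 each, the smallest that 3 against 3 lines can give). If a step was 1 read, Col4a6 had 3 reads in CB XX 1 and 5 in CB XY 2. Without CB XX 1 the difference over both crosses was 1.94 (exact permutation test, two-sided, p = 0.00433). In the BC cross Col4a5 passed the test and Col4a6 overlapped, and in the CB cross both genes overlapped and neither passed (Col4a6, unadjusted p = 0.0244, adjusted p = 0.194, limma).

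**Figure D3:**
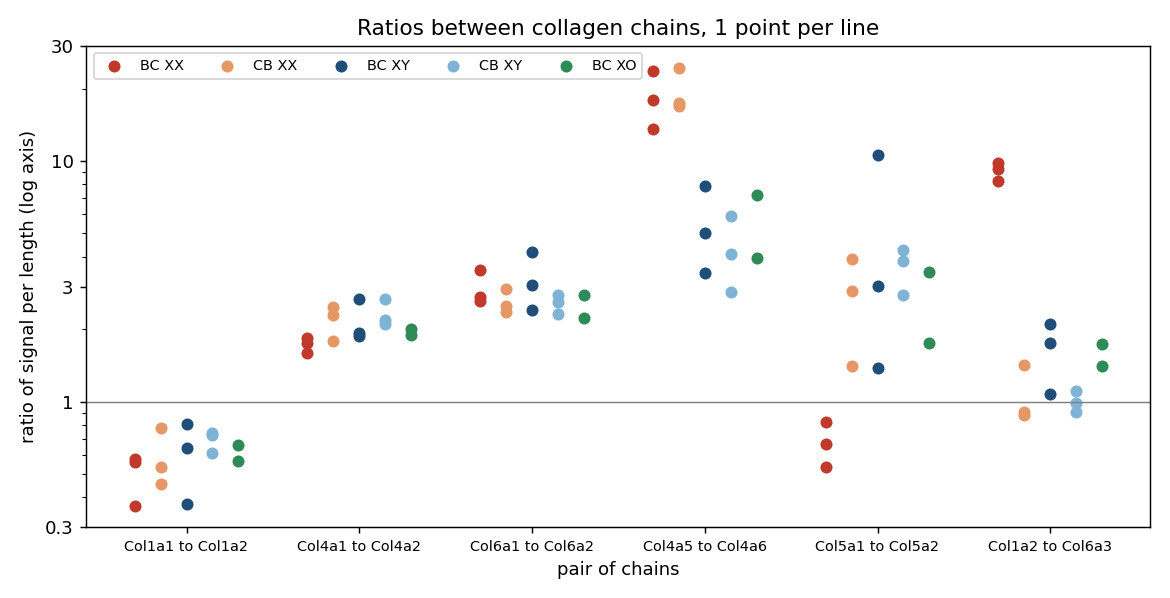
Ratios of signal per transcript length between pairs of collagen chains, 1 point per line and coloured by group, on a log axis with a grey line at 1. The 6 XX lines lie at 13.6 or above for Col4a5 to Col4a6 and all other lines at 7.91 or below, while for Col1a2 to Col6a3 the 3 BC XX lines lie at 8.26 or above and the others at 2.10 or below.

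Genes that process collagen or bind it were read from lists of the pathway, chosen by function with earlier results of these data known. Of 17 tested genes for the modification and folding of procollagen, 8 were higher in BC XX than in BC XY lines and 0 lower, where 4.46% of all genes tested were higher, the background for each list that follows. Serpinh1, the collagen chaperone HSP47, was at 7233, 7033 and 7346 against 3402, 2432 and 2065 (log2 1.48, SE 0.20, adjusted p = 0.00185, limma). Ppib, a prolyl isomerase, had a log2 fold change of 0.60 (SE 0.15, adjusted p = 0.0309). The subunit P4hb of prolyl 4-hydroxylase (0.37, adjusted p = 0.145) and the galactosyltransferase Glt25d1 (0.33, adjusted p = 0.212) did not pass. Of 15 genes for trimming, secretion and cross-linking, 7 were higher and 0 lower. Lox, which cross-links collagen through lysine, was at 3748, 10098 and 21885 against 968, 382 and 916 (log2 3.74, SE 0.66, adjusted p = 0.00655, limma), with BC XX 3 again the highest, and Loxl2 had a log2 fold change of 1.60 (SE 0.26, adjusted p = 0.00415). The enhancer of procollagen trimming Pcolce (0.46, adjusted p = 0.189) and Ctage5, which serves in procollagen export (0.55, adjusted p = 0.167), did not pass.

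Matrix proteins that bind collagen were called less widely, at 4 of 17 higher and 0 lower, and the difference between lists was not tested. Sparc, a collagen-binding glycoprotein also made in quantity by parietal endoderm, was at 14202, 20500 and 30392 against 5493, 6610 and 5510 (log2 1.82, SE 0.21, adjusted p = 0.000851, limma), and fibronectin (Fn1) had a log2 fold change of 1.25 (SE 0.27, adjusted p = 0.0159). Nid2 (-0.62, adjusted p = 0.100) and Lamc1 (-0.01, adjusted p = 0.991), both basement membrane components, did not pass. Of 10 receptor and uptake genes, 5 were higher and 0 lower. Among these were Itgb1, the shared beta subunit of the collagen-binding integrins (1.98, SE 0.37, adjusted p = 0.00910), Cd44 (2.82, SE 0.60, adjusted p = 0.0156) and the receptor Ddr2 (2.78, SE 0.55, adjusted p = 0.0117), all by limma, whereas the epithelial receptor Ddr1 did not pass (-0.69, adjusted p = 0.0948). Of 11 matrix metalloproteinases and inhibitors, 4 were higher and 0 lower, including Timp3 (2.46, adjusted p = 0.0146), Timp1 (1.83, adjusted p = 0.0265) and Mmp2 (1.76, adjusted p = 0.0177). Timp2 had a log2 fold change of 1.76 with an adjusted p of 0.0726. In the CB cross, where 3.57% of all genes passed in either direction, 0 genes of these 5 lists were higher in XX lines, Plod1, a lysyl hydroxylase, and the laminin chains Lamb1 and Lama5 were lower, and the median log2 fold changes of the lists were 0.17, 0.12, 0.14, 0.14 and 0.43. The interaction of sex and cross passed for Serpinh1 (1.70, SE 0.29, adjusted p = 0.0452) and for Itga11 (3.76, SE 0.62, adjusted p = 0.0452), by limma, and each of these calls was kept in 4 of 11 other settings and in 2 of 14 fits without 1 line. Itga11, the alpha subunit of a collagen-binding integrin and named after its values were seen, was at 592, 1464 and 1887 in the BC XX lines and at 41.2 to 135 in the other 11.

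Markers of other cell types, in lists likewise chosen with earlier results of these data known, were set beside the collagen genes. Of 24 fibroblast markers that are not collagens, 15 were higher in BC XX than in BC XY lines and 0 lower, beside 4.46% of all genes higher. In the CB cross 0 of them passed, beside 3.57% of all genes in either direction. Their mean log2 level was 9.85, 10.5 and 10.9 in the BC XX lines and 8.07 to 9.51 in the other 11 lines, so that the BC XX lines were highest in both measures and in the same order. The most abundant were Fn1, given above, and Vim, the intermediate filament of mesenchymal cells, at 17662, 25203 and 35125 in the BC XX lines and 14856, 8296 and 7098 in the BC XY lines. Fibroblast markers with no call in the BC cross included Pdgfra, at 197, 381 and 410 in the BC XX lines and 1039, 466 and 226 in the BC XY lines, and Dcn, at 65.5, 175 and 238 against 43.7, 69.8 and 211, both named after their values were seen. Pdgfra also stands in the list of endoderm markers. The mean level of the list was thus highest in the BC XX lines, with 15 of its 24 genes called. Of 7 smooth muscle markers, 5 were higher, with Acta2 at 28664, 34305 and 41744 against 4393, 1605 and 545 and Tagln at 11867, 13174 and 16206 against 5129, 1920 and 2177. The mean log2 level of that list was 10.7 to 11.0 in the BC XX lines and 7.30 to 9.11 in the others.

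Other lists moved less. Of 15 primitive and parietal endoderm markers 2 were higher in BC XX lines, Nid1 and Sparc, and the mean log2 level was 8.80 to 9.28 against 8.27 to 9.20. No chondrocyte marker of 6, endothelial marker of 6 or ES cell marker of 12 passed, beside 5.7% of all genes in either direction. Lists this small can give 0 at that share. ES cell markers had a mean log2 level of 12.5 to 12.8 in the BC XX lines and 12.8 to 13.4 in the others, with BC XX 3 lowest. The Y-linked gene Ddx3y, which XX cells do not carry, had signals of 328, 486 and 1024 in BC XX 1, BC XX 2 and BC XX 3, of 49.7, 163 and 196 in the CB XX lines, and of 101 and 102 in the XO lines. Ddx3y was at 2268, 1397 and 1115 in the BC XY lines and at 1084.5, 27.0 and 126 in the lines labelled CB XY. In the BC XX lines Uty was at 66.1, 89.6 and 195, Eif2s3y at 102, 173 and 317, and Kdm5d at 36.9, 62.3 and 123. Kdm5d was at 4.91 to 29.3 in the other lines, so it was highest in lines labelled XX. Uty and Eif2s3y reached 2088 and 255 in BC XY 1. The order of the BC XX lines for these Y-linked genes was that of Col12a1, Col5a2 and Col3a1. Among the 13 genes, Col1a1 and Col4a1, highest in BC XX 2, and Col7a1, highest in BC XX 1, did not follow it. Whether a shared order has a common source was not tested. With the fibroblast level as a covariate, the 13 genes had log2 fold changes between 0.17 and 1.57 with adjusted p-values from 0.240 to 0.950 (limma), where the covariate itself separates the BC XX lines from the rest. The part of RNA from feeder fibroblasts in these differences was not tested.

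**Figure D4:**
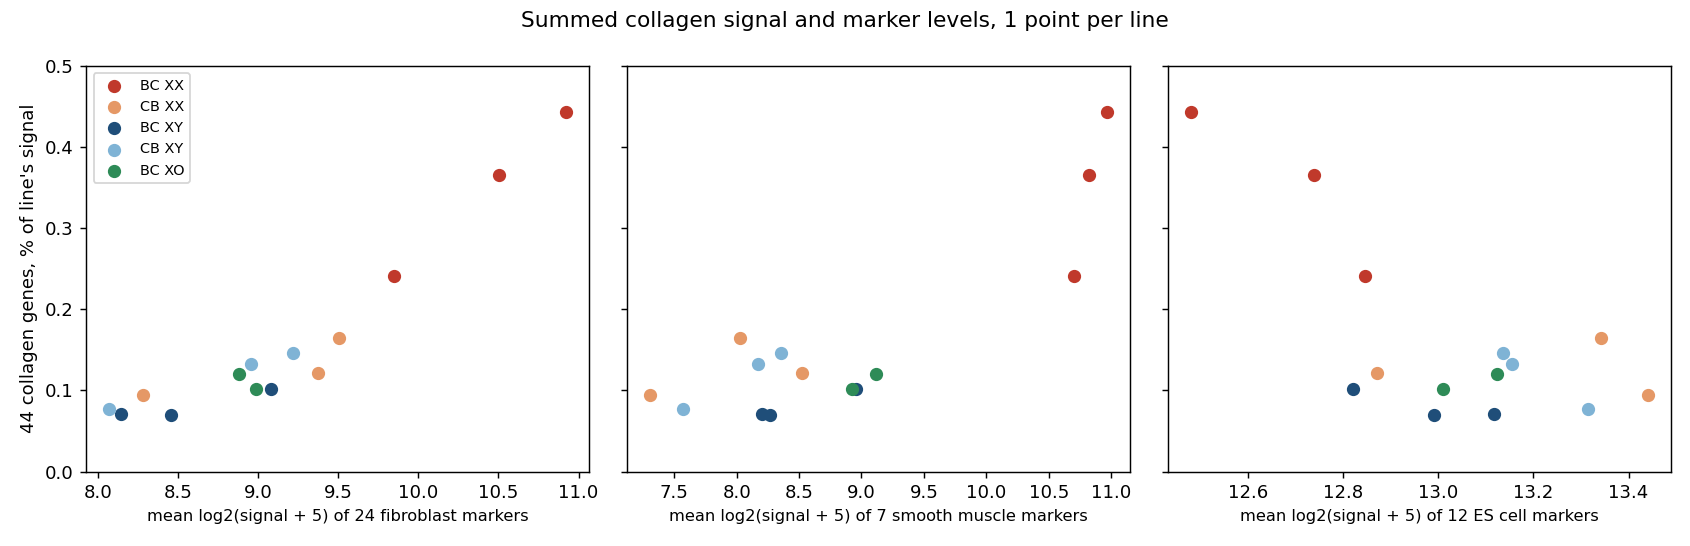
Share of the 44 collagen genes in the signal of a line (vertical, %) against the mean log2(signal + 5) of 24 fibroblast, 7 smooth muscle and 12 ES cell markers (horizontal), 1 point per line and coloured by group. The 3 BC XX lines lie at 0.241% to 0.443%, to the right of every other line for fibroblast and smooth muscle markers and at the low end for ES cell markers.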

How the data were processed

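RNA from 14 ES cell lines was read in stranded total RNA libraries prepared in batches of 6, and the assignment of lines to batches was not given in the sources used here. The authors aligned single-end reads to mm9 with TopHat2 and compared genes with Cuffdiff, and deposited 1 signal value per gene and line, scaled to a common depth before deposit. The 3 CB XX columns carry no line number of the labels and were numbered by column order.

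The collagen genes and all lists were chosen with earlier results of these data known. Values were compared as log2(value + 5), so fold changes of low genes are understated, with limma 3.58.1 (trended variance) in R 4.3.3. XX and XY lines were compared over 12 lines, for genes at 10 or more in 6 lines, and the other contrasts came from a model of 5 groups over 14 lines, for genes at 10 or more in 2. Genes listed at 0 in a whole group and at 100 or more elsewhere, 15 in all, were left out, with 0 collagen genes among them. Values were deposited scaled, and counts were not rebuilt from the steps, so no count test was run. Lines were not weighted by depth. The fit was tested on simulated data for BC XX against BC XY, where 52% of 200 genes changed 2-fold and 89.5% of 200 changed 4-fold were called. These shares were the same for CB XX against CB XY. They were 30.5% and 88.5% for BC XX against BC XO, and 36% and 88% for BC XO against BC XY. For the interaction they were 14.5% and 82%, and for all XX against XY lines 76% and 96.5%. The changed genes were drawn above a floor of mean signal that Col15a1 (mean 29.3) and Col26a1 (20.6) do not reach. Noise was normal and independent between genes, with the widest spreads capped. The shares are therefore not those of low collagen genes, nor of genes with a wide spread such as Col3a1 (SE 0.81).

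Given in full are the 2 members of each structural class with the highest mean, the partner chains of types I, IV and VI, X-linked members, members called in all XX against XY lines or in the interaction, and at most 4 genes of highest mean from each pathway list. Log2 ratios of chains per line were compared by exact permutation tests (scipy 1.17.1), with p-values not adjusted for the number of ratios. Intervals cover 95%. Alternatives changed pseudocount, filter, scaling, threshold, covariates, lines in the model, and left out each line in turn.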

Additional observations from a re-analysis of the deposited data

Results flagged for a closer look

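The sex difference differed between the crosses for 2 genes of the collagen pathway lists, by the test of the interaction in limma with Benjamini-Hochberg adjustment. Itga11 had an interaction of 3.76 on the log2 scale (adjusted p = 0.0452). Its BC XX lines were at 592, 1464 and 1887 against 71.2, 59.0 and 70.3 in the BC XY lines, and its CB XX lines at 41.2, 108 and 135 against 68.7, 78.6 and 61.0 in the lines labelled CB XY. Serpinh1 had an interaction of 1.70 (adjusted p = 0.0452). Its CB XX lines were at 4237, 4357 and 3362 and the lines labelled CB XY at 5711, 3451 and 4967. Most settings lost both calls: each was kept in 4 of 11 other settings. Over the 11 the adjusted p ran from 0.0209 to 0.297 for Itga11 and from 0.0238 to 0.332 for Serpinh1, and of 14 fits without 1 line it was under 0.05 in 2 for each gene.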

How the results depend on the processing

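Collagen genes called in the BC cross numbered 12 to 15 under other pseudocounts, filters, scalings and sets of lines, 8 at an FDR of 0.01, 0 with the fibroblast level as a covariate, and 7 to 14 without 1 line. The fit with the covariate called 7 of all 16261 genes. The 15 came from the BC lines alone, an alternative chosen after seeing the data. For BC XX against XO lines the count of 9 became 2 with no filter on low values, 0 at an FDR of 0.01, 0 with the fibroblast level as a covariate, and 0 to 11 without 1 line. Here too the fit with the covariate called 7 of all 16261 genes. Between all XX and XY lines 6 collagen genes were called with the cross as a covariate, where 1697 of all 15311 genes were. The count was 0 to 12 without 1 line, and in the fit with 12 there were 1746 of all 15445 genes called. For the interaction the count of collagen genes was 0 to 1 without 1 line. CB XY 2 and CB XY 3 were also left out together, with an interaction of 4.38 on the log2 scale for Col1a1. That fit has 1 CB XY line, assumed to vary like the other groups. The counts for the CB cross and for XO against XY lines were 0 in every setting run. With the replicate number as a block in the BC lines, the count was 13 against XY lines, where 505 of 15858 genes passed in all. Against XO lines it was 0, where 13 of 15858 genes passed. Lines with equal numbers share only a number: deviations of BC XX and BC XY lines correlated at -0.17, 0.25 and -0.05 within numbers 1, 2 and 3. No paired analysis was possible for the CB cross, the interaction or all XX against XY lines because the CB XX columns carry no line number.

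None of the 13 genes changed direction under any setting run. Log2 fold changes without a call in the BC cross that changed sign with the fibroblast level as a covariate were Col10a1 (-1.86), Col18a1 (0.32), Col26a1 (0.69), Col4a6 (-0.98), Col6a1 (-0.66), Col6a2 (-0.69), Col6a3 (-1.29), Nid2 (0.23), Lamc1 (0.82) and Timp2 (-0.95), and with a call Cd44 (-0.27), Timp3 (-0.031) and Timp1 (-0.29). Lamc1 also changed sign under quantile normalization (0.015). Over the fits without 1 line, Lamc1 ran from -0.22 to 0.15 (above 0 without BC XY 2 or BC XY 3), Col17a1 from -0.074 to 0.52 (below 0 without BC XX 1 or BC XY 2) and Col26a1 from -0.55 to 0.19 (above 0 without BC XY 3). The cause of these changes was not tested. If a step was 1 read, Col4a6 in CB XX 1 was at 3 reads, the limit taken for detection.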
